A study of Ictidomys tridecemlineatus with 10 samples.

Results

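The genes described here encode the receptors for 7 circulating hormones that report on energy stores, feeding and growth. They are Lepr (leptin), Ghr (growth hormone), Insr (insulin), Igf1r (insulin-like growth factor 1), Adipor1 and Adipor2 (adiponectin), Glp1r (glucagon-like peptide 1) and Ghsr (ghrelin). They were chosen by name as receptors through which the subfornical organ could sense these hormones, and not by measured values. All 8 were among the 25964 genes of the deposited table, and 7 of them were among the 15445 genes that averaged 1 CPM or more over the libraries and entered the test (CPM is the read count scaled to a common library size). Ghsr lay under that level and was compared on its own.

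The subfornical organ is a small midline structure of the forebrain, best known for thirst, whose fenestrated capillaries let hormones of the blood reach its neurons and glia. Leptin and growth hormone act through receptors of the class I cytokine family, which have no kinase of their own and signal through JAK kinases and STAT transcription factors. Insulin and IGF-1 act through receptor tyrosine kinases and the PI3-kinase and AKT pathway, adiponectin through membrane receptors linked to AMP-activated protein kinase (AMPK), and GLP-1 and ghrelin through G protein-coupled receptors. In rodents, leptin, insulin and GLP-1 mainly lower food intake and ghrelin raises it.

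Messenger RNA was sequenced from subfornical organs of thirteen-lined ground squirrels (Ictidomys tridecemlineatus), a hibernating rodent that goes for months without food or water. There were 5 libraries from Active animals, which were not hibernating, and 5 from animals in interbout arousal (IBA), the short return to a warm, awake state between bouts of torpor during hibernation. No genotype, drug or diet is named for either state, and age and sex are not stated. The submitters describe the samples as biological replicates, and the series' title asks how the squirrels live without water, so the question here is whether the organ's hormone receptors differed between the states. The tissue was cut out by hand from thick slices, so neighbouring tissue could be included, and in such bulk RNA fewer cells of a type and less RNA per cell cannot be told apart.

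The Active and IBA libraries held 20993093 to 35382203 reads. Of 9 measured markers of the organ, among them Agtr1, Scn7a and Etv1, 8 were tested, and their summed level was 626 to 1005 CPM in Active and 847 to 1414 CPM in IBA libraries. Active replicate 4 stood apart by its choroid plexus markers, the genes of the epithelium that makes cerebrospinal fluid and that lies against the organ. Their summed level there was 13867 CPM, against 519 to 3170 CPM in the other 9 libraries. Active replicate 4 was also the lowest library for astrocyte markers, at 7128 CPM against at least 10374 CPM elsewhere. It was lowest as well for endothelium, tanycyte and ependymal, microglia and, by a small margin, neuron markers. Its tissue make-up thus differed in more than choroid plexus. Results that rest on that library are given below with and without it.

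None of the 7 tested receptors passed the test for a difference between the states. limma on log2(CPM + 0.5), adjusted over all tested genes (Benjamini-Hochberg), called 0 of 7 at 0.05, against 0.401% of all genes, and 0 of 7 had an unadjusted p under 0.05, against 23.9% of all genes. edgeR's quasi-likelihood test and DESeq2, run on the recovered whole reads, called 0 of 7 as well, against 0.369% and 9.89% of all genes, and each gave 0 of 7 with an unadjusted p under 0.05. No member had Active and IBA values without overlap, which 6.38% of the tested genes had. The median SE of the tested receptors was 0.24, against 0.16 for all tested genes, so a difference of the same size was harder to call. The median absolute log2 difference was 0.20 for both. By sign alone, 6 receptors were lower and 1, Ghr, was higher in IBA, with a median log2 difference of -0.11 against 0.03 for all tested genes. Without Active replicate 4 the same 7 genes split into 3 lower and 4 higher, so this split depended on 1 library.

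**Figure D1:**
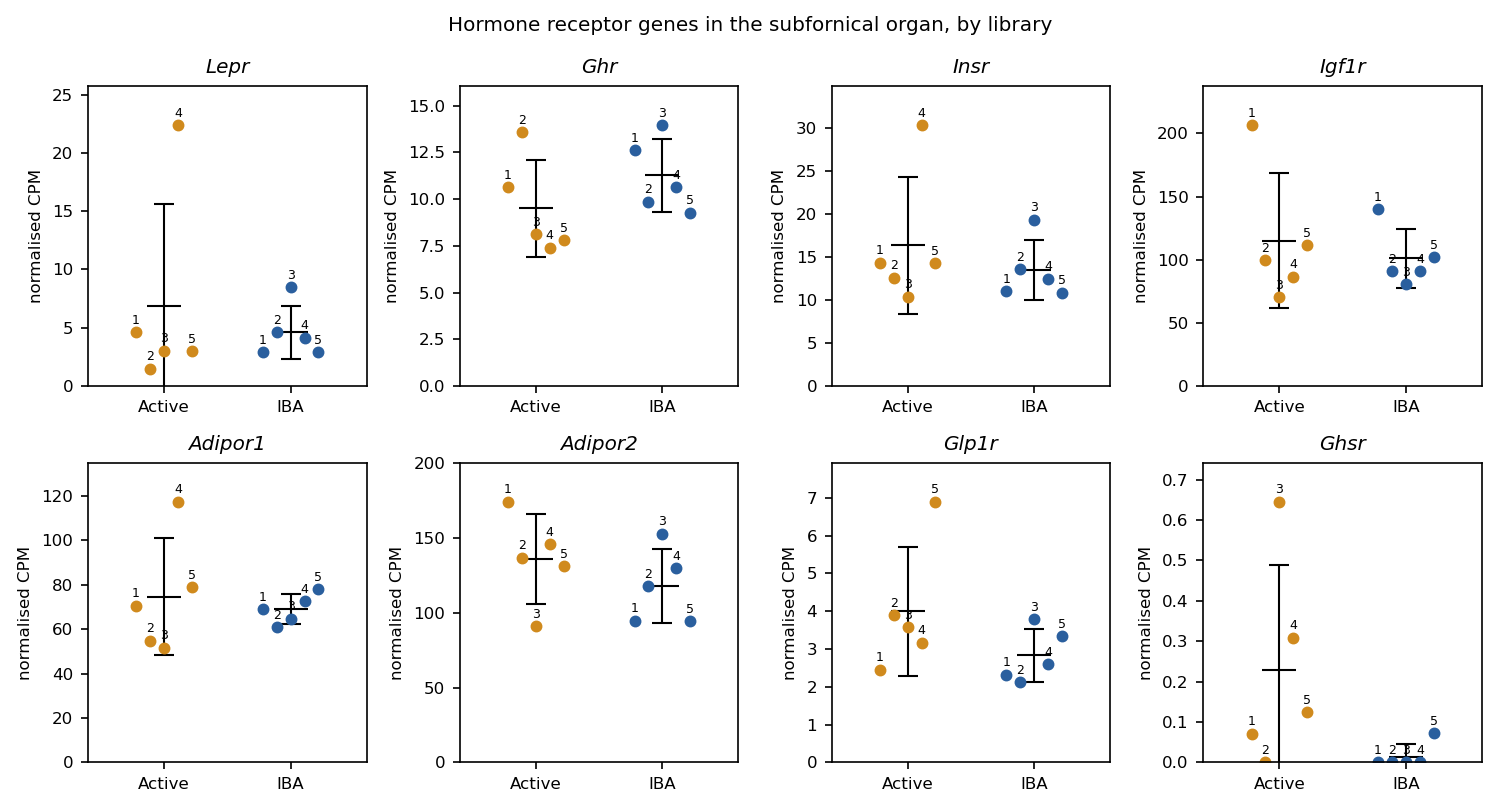
Normalised CPM (vertical axes, linear, from 0) of the 8 receptor genes in each Active (orange) and IBA (blue) library, with replicate numbers beside the points and the mean and SD as bars, where bars that pass below 0 are not drawn further. Active replicate 4 stands above all other libraries for Lepr, Insr and Adipor1, and for each gene the ranges of the states overlap.

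Lepr encodes the leptin receptor, which also takes part in carrying leptin across the choroid plexus and brain capillaries in mice. Its level in Active replicates 1 to 5 was 4.59, 1.47, 3.01, 22.4 and 2.97 CPM, and in IBA replicates 1 to 5 it was 2.91, 4.63, 8.45, 4.14 and 2.87 CPM. The highest library of each state, Active replicate 4 and IBA replicate 3, stood well above the other 4, and all IBA values lay within the Active range. The means were 6.89 ± 8.73 CPM in Active and 4.60 ± 2.28 CPM in IBA (SD, n = 5 each). The fitted log2 difference was -0.04, with an SE of 0.54 and a 95% interval from -1.20 to 1.13 (limma, adjusted p = 0.973). edgeR and DESeq2 on whole reads each put it at -0.64, with adjusted p of 0.582 and 0.626. On the fold scale the interval of the limma fit runs from 0.434 to 2.19, so this fit did not exclude a change of either sign by a factor of 2.

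The Lepr values behind that interval turn on Active replicate 4. Without it the Active mean was 3.01 ± 1.27 CPM (n = 4) and the log2 difference was 0.52, with an interval from -0.20 to 1.23 (limma, adjusted p = 0.367). Over all 10 libraries Lepr had 37 to 508 Active and 80 to 268 IBA reads per library, with the 508 in Active replicate 4. That was enough that the spread between animals exceeded the counting error.

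Ghr encodes the growth hormone receptor, the other cytokine-family member of the group. It measured 10.6, 13.6, 8.14, 7.40 and 7.80 CPM in Active replicates 1 to 5 and 12.6, 9.86, 14.0, 10.6 and 9.27 CPM in IBA replicates 1 to 5. Active replicates 3, 4 and 5 lay below all IBA libraries, while Active replicates 1 and 2 lay within the IBA range. The means were 9.51 ± 2.60 CPM in Active and 11.3 ± 1.97 CPM in IBA (SD, n = 5 each), a log2 difference of 0.25 with an SE of 0.18 and an interval from -0.15 to 0.66 (limma, adjusted p = 0.422). It was 0.39 without Active replicate 2 (limma, unadjusted p = 0.0432, adjusted p = 0.200) and 0.07 without both Active replicates 4 and 5.

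Insr encodes the insulin receptor. Its values were 14.3, 12.6, 10.4, 30.3 and 14.3 CPM in Active replicates 1 to 5 and 11.1, 13.6, 19.3, 12.5 and 10.8 CPM in IBA replicates 1 to 5. As for Lepr, Active replicate 4 and IBA replicate 3 held the highest values of their states, and the other 8 libraries lay close together. The means were 16.4 ± 7.96 CPM and 13.5 ± 3.46 CPM (SD, n = 5 each), a log2 difference of -0.20 with an SE of 0.26 and an interval from -0.76 to 0.35 (limma, adjusted p = 0.661). Without Active replicate 4 the Active mean was 12.9 ± 1.88 CPM (n = 4) and the log2 difference was 0.04 (limma, adjusted p = 0.918).

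Igf1r encodes the receptor for IGF-1, a kinase closely related to the insulin receptor with which it can pair. It measured 207, 99.5, 70.2, 86.5 and 111.6 CPM in Active replicates 1 to 5 and 140.2, 90.9, 80.8, 90.9 and 102.1 CPM in IBA replicates 1 to 5. Here replicate 1 was the highest library of each state, and Active replicate 4 was not raised. The means were 114.9 ± 53.5 CPM and 101.0 ± 23.2 CPM (SD, n = 5 each), a log2 difference of -0.11 with an SE of 0.25 and an interval from -0.64 to 0.43 (limma, adjusted p = 0.821). Without Active replicate 1 the sign turned, to a log2 difference of 0.13.

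Adipor1 and Adipor2 encode the adiponectin receptors. Adipor1 was 70.5, 54.8, 51.6, 117 and 79.0 CPM in Active replicates 1 to 5 and 69.1, 61.0, 64.7, 72.6 and 78.0 CPM in IBA replicates 1 to 5. All 5 IBA values lay within the Active range, and their spread was small, with a coefficient of variation of 9.59% against 35.4% in Active. The log2 difference of Adipor1 was -0.05 with an SE of 0.19, and its interval from -0.47 to 0.36 corresponds to 0.724-fold to 1.29-fold (limma, adjusted p = 0.891). Without Active replicate 4 it was 0.13, and the Active mean was 64.0 ± 13.0 CPM (n = 4) instead of 74.7 ± 26.4 CPM (n = 5), beside 69.1 ± 6.63 CPM in IBA (n = 5).

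Adipor2 was 174, 136.9, 90.9, 145.9 and 131 CPM in Active replicates 1 to 5 and 94.8, 117.6, 152.8, 129.8 and 94.6 CPM in IBA replicates 1 to 5. The lowest library was an Active one, and the highest IBA library lay above 4 of the 5 Active ones. The means were 135.9 ± 30.1 CPM and 117.9 ± 24.7 CPM (SD, n = 5 each), a log2 difference of -0.20 with an SE of 0.18 and an interval from -0.58 to 0.19 (limma, adjusted p = 0.523), and leaving out 1 library moved it between -0.33 without Active replicate 3 and -0.10 without Active replicate 1.

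Glp1r encodes the GLP-1 receptor, which couples to the stimulatory G protein and cyclic AMP. It measured 2.45, 3.90, 3.59, 3.17 and 6.90 CPM in Active replicates 1 to 5 and 2.32, 2.12, 3.78, 2.60 and 3.34 CPM in IBA replicates 1 to 5. Active replicate 5 was the highest library, and the other 4 Active values lay next to or within the IBA range. The means were 4.00 ± 1.71 CPM and 2.83 ± 0.705 CPM (SD, n = 5 each). The log2 difference of -0.39 (SE 0.24, interval from -0.92 to 0.14) had the smallest p of the tested receptors, and its adjusted p was 0.350 in limma. Without Active replicate 5 it was -0.19 (limma, adjusted p = 0.651).

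Ghsr, the ghrelin receptor, was near the limit of detection. It had 2, 0, 18, 7 and 4 reads in Active replicates 1 to 5, which is 0.0711, 0, 0.645, 0.308 and 0.124 CPM. In IBA replicates 1 to 4 it had 0 reads, and in IBA replicate 5 it had 2 reads, or 0.0719 CPM. A count of 0 allows up to 3 reads, which is 0.0882 to 0.132 CPM in these libraries, so 4 of 5 IBA libraries and 1 of 5 Active libraries gave only an upper limit.

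Summed over libraries, 31 Active reads stood against 2 IBA reads, a ratio of 0.0613 in IBA relative to Active with a 95% interval from 0.00711 to 0.241 that covers counting error only. Over libraries the log2(CPM + 0.5) difference was -0.44, with p = 0.0873 in a two-sided exact permutation test whose smallest possible value was 0.00794. The states overlapped through Active replicates 1 and 2. The exact p was 0.0476 without Active replicate 1, 0.0159 without Active replicate 2 and 0.127 without Active replicate 3, the library with the most reads, so the side of 0.05 depended on single libraries. limma with no filter on low values gave an adjusted p of 0.213.

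**Figure D2:**
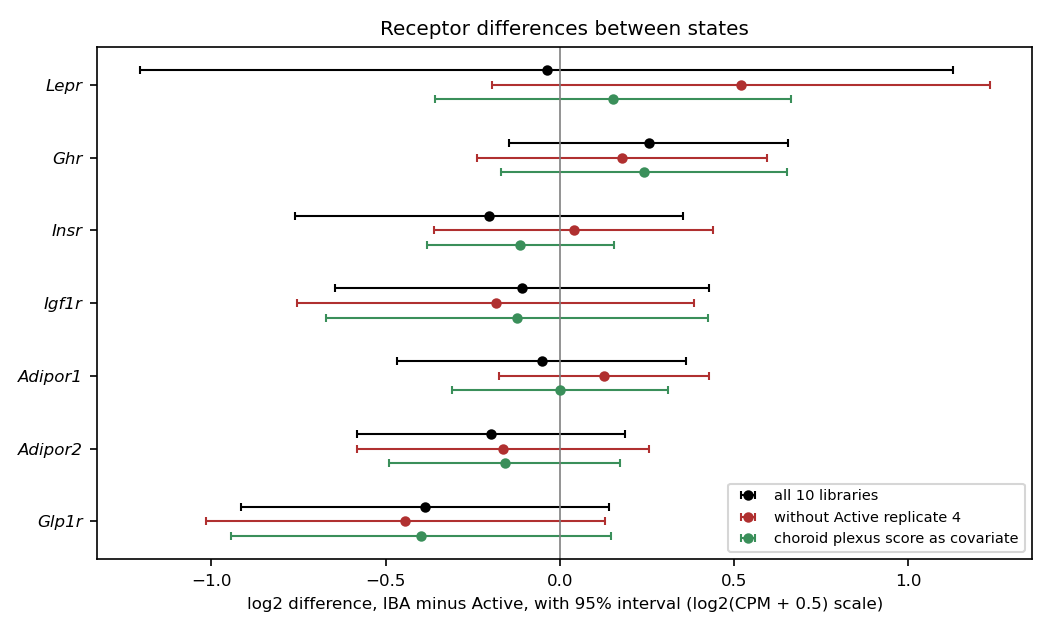
Log2 difference (horizontal axis, IBA minus Active, log2(CPM + 0.5) scale) with its 95% interval for the 7 tested receptors, from all 10 libraries (black), without Active replicate 4 (red) and with a choroid plexus score as a covariate (green). The score is the mean log2(CPM + 0.5) of the 13 choroid plexus markers, each centred on its own mean. All intervals include 0, and the estimates for Lepr, Insr and Adipor1 move up without Active replicate 4.

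The authors' deposited table gave the same signs. Its log2 fold changes, turned to IBA minus Active, were -0.58 for Lepr, -0.28 for Insr, -0.50 for Glp1r and 0.25 for Ghr. In the authors' deposited table the false discovery rate was 0.532 to 0.794 for the 7 tested receptors. For Ghsr the authors' deposited table had a log2 fold change of -3.65 with a p-value of 0.00742 and a false discovery rate of 0.185.

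Lepr, Insr and Adipor1 were highest in Active replicate 4, the library with the most choroid plexus RNA. That library was the highest for 3 of the 7 tested receptors and for 10.9% of all tested genes. Of 13 measured choroid plexus markers, 12 were highest there, and Kcne2 was not. Ttr, the transthyretin gene that dominates choroid plexus RNA, reached 10024 CPM there against at most 2143 CPM elsewhere, and Kl, the klotho gene, at 1134 CPM against at most 153 CPM. Prlr, the prolactin receptor and itself a hormone receptor that choroid plexus expresses, was at 497 CPM against at most 136 CPM.

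The library with the second-highest choroid plexus level, IBA replicate 3 at 3170 CPM, was also second for Lepr and Insr. Adipor1 was not raised in that library, at 64.7 CPM in an IBA range of 61.0 to 78.0 CPM. IBA replicate 3 was also the highest IBA library for Adipor2, Glp1r and Ghr, at 152.8, 3.78 and 14.0 CPM. None of these was highest in Active replicate 4, and Ghr was lowest there, at 7.40 CPM. Between states the markers as a list did not separate, with 0 of 13 called by limma, 3 higher and 10 lower in IBA and a median log2 difference of -0.20. As a covariate, a score was used in place of the summed CPM. It was the mean log2(CPM + 0.5) of the 13 markers, each centred on its own mean. With it the log2 difference was 0.15 (SE 0.23) for Lepr, -0.11 (SE 0.12) for Insr and -0.0001 (SE 0.14) for Adipor1. The SEs without it were 0.54, 0.26 and 0.19. Leprot, the gene beside Lepr in the reference annotation, was at 189 CPM in Active replicate 4, inside the range of 185 to 242 CPM of the other libraries. The part of choroid plexus tissue in the receptor values was not tested.

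**Figure D3:**
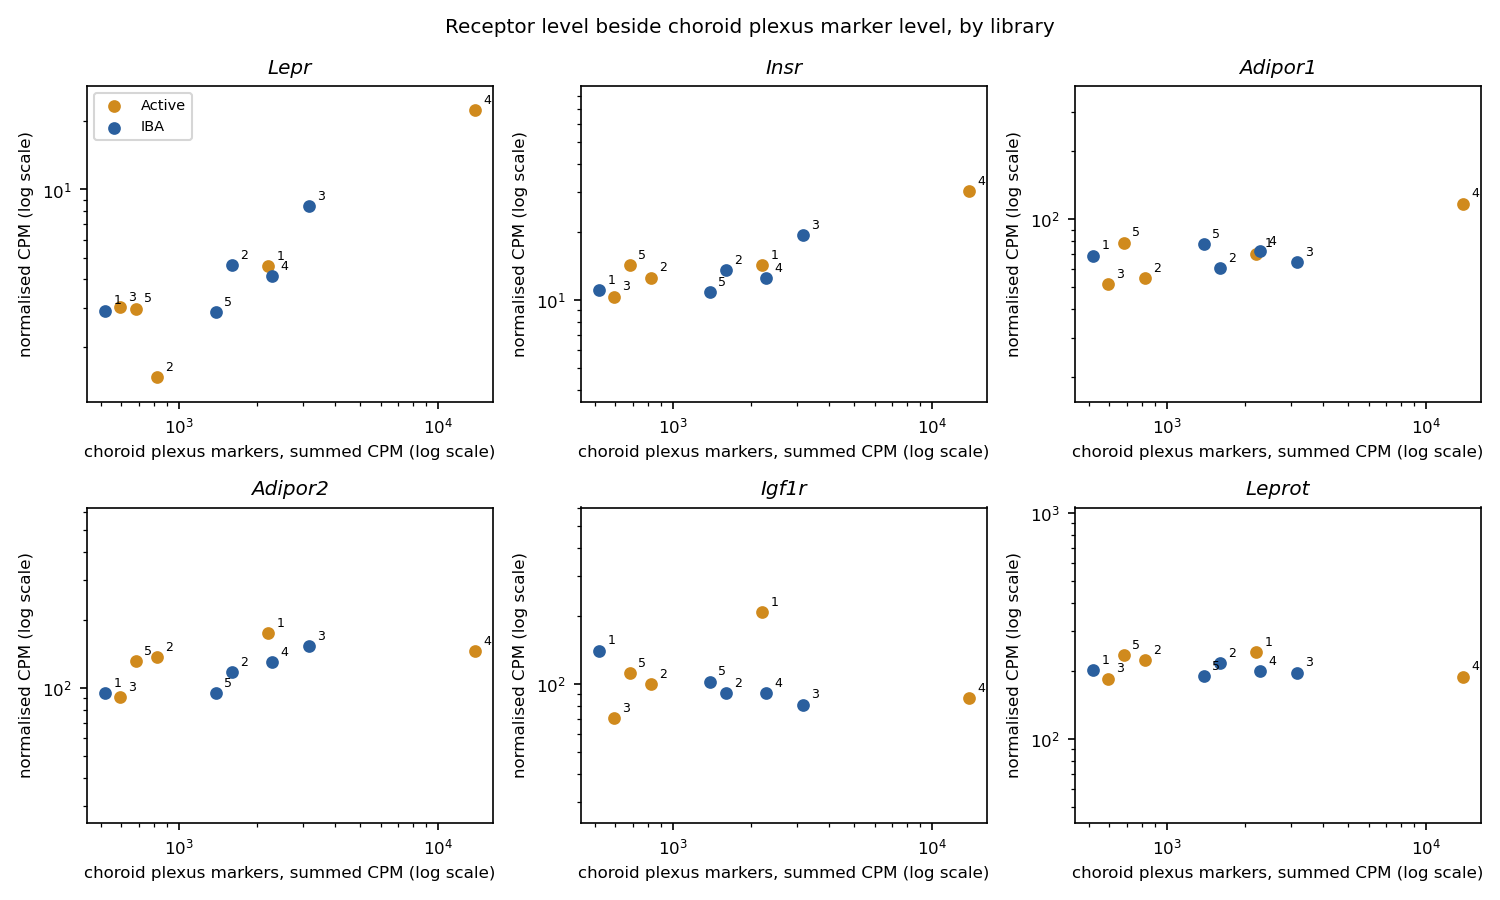
Normalised CPM of 5 receptors and of Leprot, the gene beside Lepr (vertical axes, log scale of equal span), against the summed CPM of the choroid plexus markers (horizontal axes, log scale) in each library, with replicate numbers beside the points. Active replicate 4 and IBA replicate 3 lie at the right and are the 2 highest libraries for Lepr and Insr, while Igf1r and Leprot are not raised there.

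With all 10 libraries, the receptors also spread more among Active than among IBA animals. The coefficient of variation was higher in Active for 7 of 7 tested receptors, and for 55.2% of all tested genes. It was 127% in Active and 49.6% in IBA for Lepr, and 22.2% and 20.9% for Adipor2. Without Active replicate 4 the coefficient was higher in Active for 5 of 7 receptors and for 48.8% of tested genes. For Lepr and Insr the order then turned, with 42.2% and 14.5% in Active against 49.6% and 25.7% in IBA. The difference in spread was not tested.

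Within states, Lepr and Insr moved together across the 10 libraries, with a Pearson r of 0.92 between their log2 values centred on the state means, and of 0.75 without Active replicate 4. Adipor1 followed both with r of 0.71 each, which became 0.06 and 0.13 without that library. Insr and Adipor2 had an r of 0.61, which became 0.85 without it. These values share the libraries and their tissue make-up and are given as a description.

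The genes most like each receptor, by the same r over the 10 libraries among 15444 other tested genes, differed from receptor to receptor. For Lepr they were Clic6, a chloride channel gene from the choroid plexus marker list (r = 0.98, rho = 0.92, and r = 0.94 without Active replicate 4 and IBA replicate 3), and Slit3, an axon guidance ligand (r = 0.98). For Insr, Rbbp8, a DNA repair factor, had an r of 0.99, and of 0.93 without the same 2 libraries. For Igf1r they were Rhob, a small GTPase, and Kcnj5, a potassium channel subunit, with r of 0.96 and 0.95.

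For Adipor1 the closest genes were Bcl2l1, an inhibitor of apoptosis (r = 0.99), and Osbpl1a, an oxysterol-binding protein (r = 0.97). Adipor2 had Ttc38 and the RNA-binding protein Khsrp, with r of 0.95 and 0.94. Glp1r had the kinase Stk10 and the RNA-binding protein Caprin1, with r of 0.96 and 0.94. Ghr had Gpatch1 and Larp7, a regulator of transcription elongation, with r of 0.96 and 0.95. None of the genes named for their likeness was called between the states, and being the best of many candidates fixes a high r.

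Around the receptors, 126 genes were listed in 6 groups: other hormone receptors, ligands and their binding proteins, and the signalling steps after each receptor class. Of these, 111 were tested and 1, Cdh13, was called by limma (0.901%, against 0.401% of all tested genes). edgeR called 0, against 0.369% of all genes, and DESeq2 called 13 (6 higher and 7 lower in IBA), which is 11.7% against 9.89% of all genes. By limma, 29 of the 111 had an unadjusted p under 0.05 (26.1%, against 23.9% of all genes), 12 higher and 17 lower, and 2 of 111 (1.8%, against 6.38% of all genes) had no overlap between states. edgeR gave 30 (27.0%) and DESeq2 32 (28.8%) at an unadjusted p under 0.05.

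**Figure D4:**
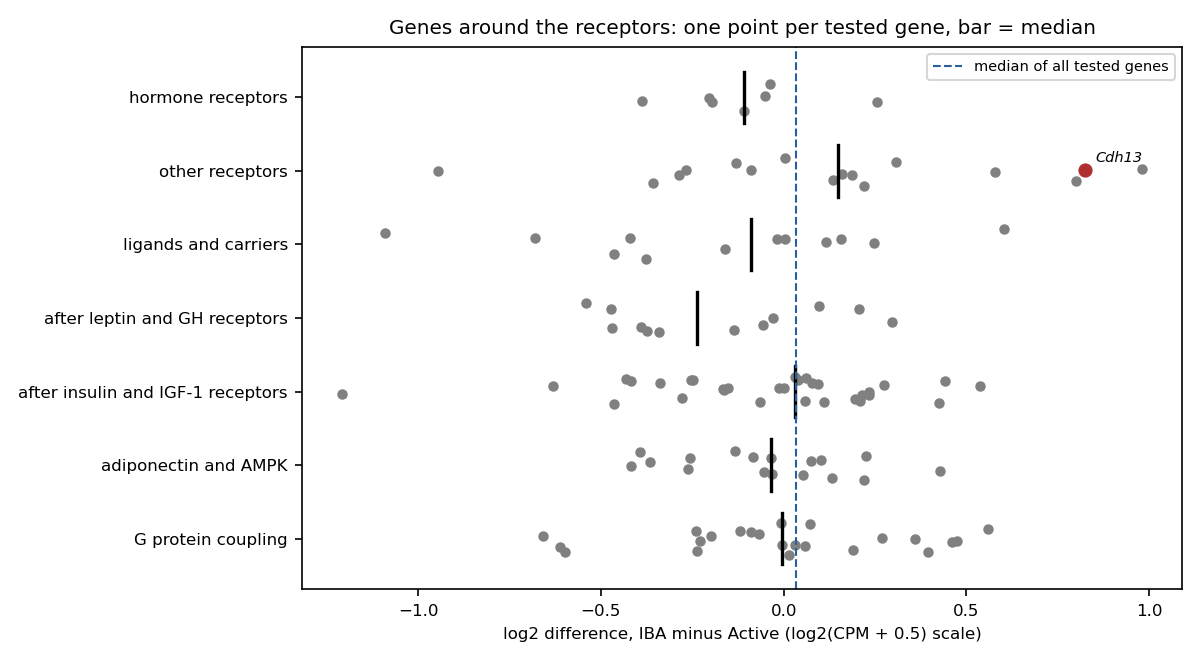
Log2 difference between states (horizontal axis, IBA minus Active, log2(CPM + 0.5) scale) of each tested gene in the receptor list and the 6 surrounding lists, with each list's median as a bar and the median of all tested genes, 0.03, as a dashed line. The medians lie between -0.24 and 0.15, and Cdh13, in red, is the gene that limma called.

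Cdh13 encodes T-cadherin, a GPI-anchored surface protein that binds adiponectin in mice. It rose from 121, 133, 162, 123 and 107 CPM in Active replicates 1 to 5 to 309.7, 225, 231, 173 and 215 CPM in IBA replicates 1 to 5. Each IBA library lay above each Active library. The means were 129 ± 20.48 CPM and 231 ± 49.6 CPM (SD, n = 5 each), a log2 difference of 0.82 with an SE of 0.15 (limma, adjusted p = 0.0388). The call was close to the threshold: it held in 12 of 23 alternative settings, with limma, edgeR or DESeq2 adjusted p from 0.000261 to 0.193. Among the 10 fits that left out 1 library it held in 3 and was lost without Active replicate 1, 2, 4 or 5 or IBA replicate 1, 2 or 3. edgeR gave an adjusted p of 0.0503, and the authors' deposited table had a false discovery rate of 0.200.

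The other 15 tested genes of the list of further hormone receptors did not pass in limma or edgeR, while DESeq2 called Klb and Mc3r higher and Fgfr1 lower. With Cdh13 the list had 10 genes higher and 6 lower with a median of 0.15, and 3 of the higher and 2 of the lower had an unadjusted limma p under 0.05. Its next members by p, chosen after their values were seen, were Klb and Mc3r. Klb, a co-receptor for FGF hormones, averaged 1.83 ± 0.604 CPM in Active and 4.15 ± 1.34 CPM in IBA libraries (log2 difference 0.98, limma adjusted p = 0.0728). Mc3r, a melanocortin receptor, was at 8.44 ± 2.61 and 15.1 ± 4.48 CPM (log2 difference 0.80, limma adjusted p = 0.0821).

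Most genes of the hormones themselves were at very low levels in the tissue. Lep, Ins, Adipoq, Gcg and Mboat4, the enzyme that activates ghrelin, stayed under the filter, with no library above 0.731 CPM. Igf1 averaged 10.3 and 10.1 CPM in Active and IBA, and Ghrl, the ghrelin gene, 2.50 and 2.80 CPM. Of the ligands and binding proteins, 12 were tested, 5 higher and 7 lower, with a median of -0.09. limma and edgeR called 0 of them and DESeq2 called 1, Igfbp2, and by limma 3 had an unadjusted p under 0.05. Igfbp2, an IGF-binding protein, averaged 22.9 ± 18.0 CPM in Active and 8.17 ± 1.77 CPM in IBA (limma, adjusted p = 0.168), with 49.9 and 31.8 CPM in Active replicates 4 and 5. Its log2 difference was -1.09 with all libraries and -0.32 without these. Igfbp3 was at 19.6 ± 7.73 and 29.8 ± 11.3 CPM (limma, adjusted p = 0.206). Igf2, the IGF-2 gene, was also under 0.05 unadjusted and is named here after its values were seen. It was well expressed, at 146.1 ± 110.7 CPM in Active (highest library 343 CPM) and 77.5 ± 6.97 CPM in IBA. Its log2 difference was -0.68 (limma, adjusted p = 0.209).

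After the leptin and growth hormone receptors, 12 genes were tested, with 3 higher, 9 lower and a median of -0.24, the lowest of the 6 lists. limma and edgeR called 0 of them and DESeq2 called 1, Stat3, and by limma 3 had an unadjusted p under 0.05. Stat3, the transcription factor that leptin activates, was at 169, 241, 137, 132 and 231 CPM in Active and 136, 119, 126, 111 and 115 CPM in IBA replicates 1 to 5. The IBA values were close together and 1 of them lay inside the Active range. Its log2 difference was -0.54 (SE 0.17, limma adjusted p = 0.0958, DESeq2 adjusted p = 0.0109). Jak1 had a log2 difference of -0.47 (limma, adjusted p = 0.148), while Jak2, the kinase bound to both receptors and named here after its values were seen, had one of 0.30 (limma, adjusted p = 0.233).

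After the insulin and IGF-1 receptors, 31 genes were tested, 17 higher and 14 lower with a median of 0.03. limma and edgeR called 0 of them, and by limma 8 had an unadjusted p under 0.05. DESeq2 called 4, Rictor and Inpp5d higher and Foxo4 and Pik3r2 lower. Rictor, a subunit of mTOR complex 2 that activates AKT, averaged 26.4 ± 3.87 CPM over Active and 35.9 ± 3.73 CPM over IBA libraries (log2 difference 0.44, limma adjusted p = 0.0853). Inpp5d, a lipid phosphatase of blood-lineage cells including microglia, was at 6.62 ± 0.751 and 9.94 ± 2.06 CPM (log2 difference 0.54, limma adjusted p = 0.0921).

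Of the adiponectin and AMPK genes, 17 were tested, 7 higher and 10 lower with a median of -0.04. limma and edgeR called 0 of them and DESeq2 called 2, Prkag1 and Camkk2, and by limma 3 had an unadjusted p under 0.05. Prkag1, a regulatory subunit of AMPK, had 174, 181, 149, 145 and 154 CPM in Active and 246, 217, 212, 205 and 199 CPM in IBA replicates 1 to 5. The states did not overlap, and the log2 difference was 0.43 with an SE of 0.10, but the adjusted p in limma was 0.0603, beside 0.000885 in DESeq2. Camkk2, a kinase that activates AMPK, was at 16.2 ± 1.72 and 12.3 ± 2.04 CPM (log2 difference -0.39, limma adjusted p = 0.118).

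Of the genes for G protein coupling and cyclic AMP, 23 were tested, 11 higher and 12 lower, with a median of 0.00. limma and edgeR called 0 of them and DESeq2 called 1, Rapgef3, and by limma 7 had an unadjusted p under 0.05. Rapgef3, an exchange factor that cyclic AMP activates, averaged 40.3 ± 10.3 CPM over Active and 25.95 ± 4.51 CPM over IBA libraries (log2 difference -0.60, limma adjusted p = 0.0940). Adcy1, an adenylyl cyclase, was at 3.52 ± 0.878 and 2.15 ± 0.627 CPM (log2 difference -0.61, limma adjusted p = 0.130).

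**Figure D5:**
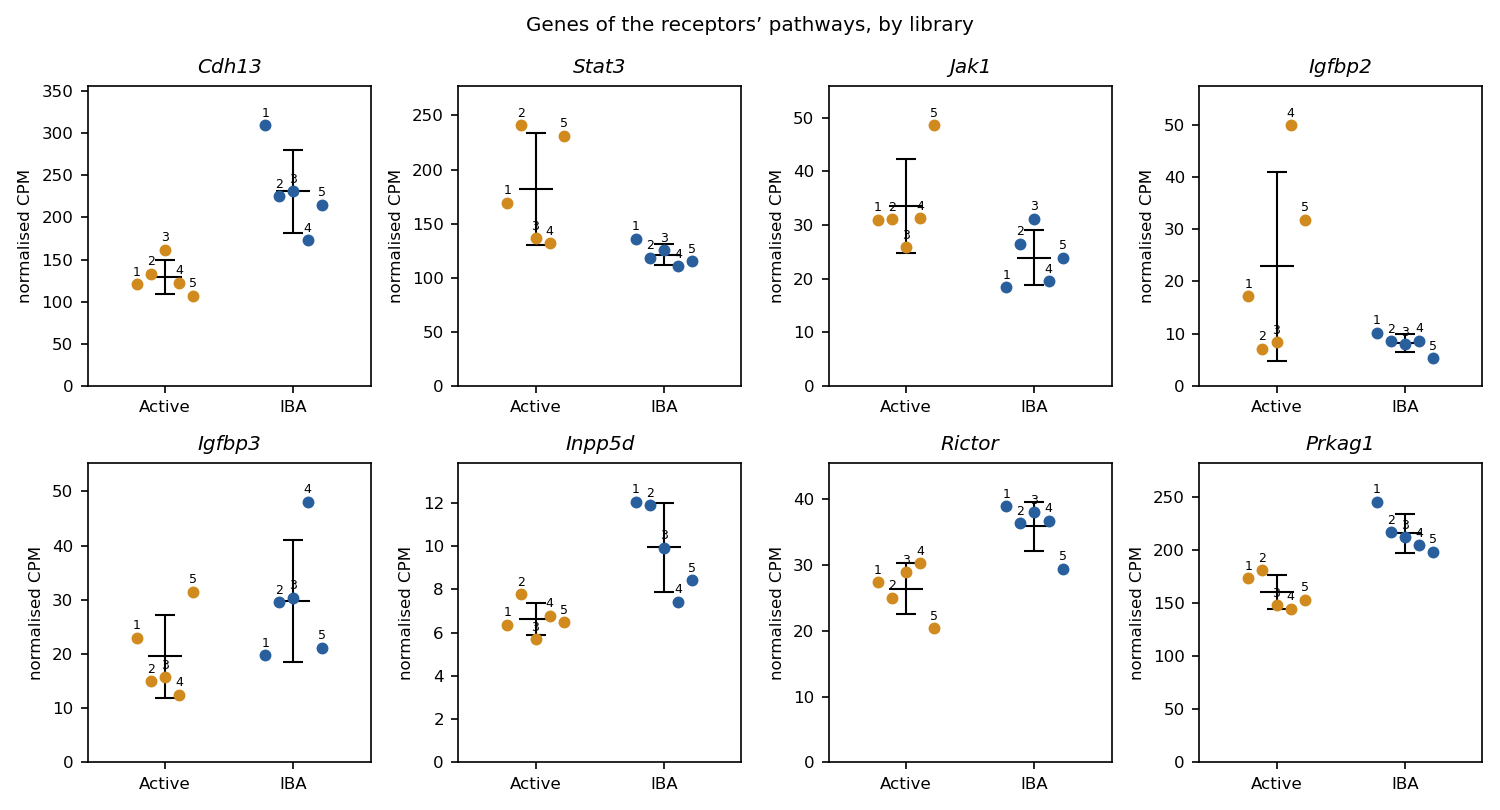
Normalised CPM (vertical axes, linear, from 0) of 8 genes from the surrounding lists in each Active (orange) and IBA (blue) library, with replicate numbers beside the points and the mean and SD as bars. The states do not overlap for Cdh13 and Prkag1, and they overlap for the other 6 genes.

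Marker levels of other cell types moved beside some of these genes. Microglia markers summed to 222 to 288 CPM in Active and 296 to 344 CPM in IBA libraries, without overlap, as for Cdh13 and Prkag1. Of 10 tested microglia and macrophage markers, limma called 2 higher (Tyrobp and P2ry12) and 1 lower (Lyve1) in IBA, and none of the 12 measured was at 0 in any library. In the other marker lists limma called 0 genes, and their summed levels overlapped between states. For hippocampus and thalamus, tissue that neighbours the organ, the overlap was slight, at 673 to 857 CPM in Active and 530 to 675 CPM in IBA. Single markers of these other lists had no overlap, which 6.38% of all tested genes had. Vwf of endothelium was higher in IBA (log2 difference 0.78). Myh11 of mural cells (-1.46), Foxj1 of ependyma (-2.06) and Zbtb20 of hippocampus (-0.50) were lower, and the limma adjusted p were 0.0748 to 0.0770. Their lists were mixed by sign. Higher in IBA were 6 of 12 endothelium, 2 of 10 pericyte, 3 of 8 tanycyte and ependymal and 2 of 8 hippocampus and thalamus markers. By limma, 4 of 10 pericyte markers were lower and 2 of 10 neuron markers higher at an unadjusted p under 0.05, against 23.9% of all genes. By sign, 8 of 10 neuron markers were higher, as were 8355 of the 15445 tested genes. The part of these cell types in the values of Cdh13, Prkag1, Inpp5d and the other genes was not tested.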

How the data were processed

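RNA from the subfornical organ was sequenced in 10 libraries, with state and number read from each title. Per the labels' protocols, total RNA went into an mRNA library kit. The submitters' processing notes name R 4.2.1 with edgeR 3.38.4, STAR 2.7.7a, Trimmomatic 0.39 and featureCounts of Subread 2.0.1. Genome build, annotation and strand setting are not given in the sources used here, and overlapping and antisense genes may share reads. In the reference list of assembly mIctTri1.hap1, used for names and neighbours only, loci overlap Lepr, Insr, Igf1r and Adipor2. The 2 of them present in the table, both at Adipor2, had mean levels under 0.170 CPM.

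The deposited values are, per the file headers, normalised CPM, a signal that the authors scaled so that libraries summed to 918752 to 1040002, and, per gene, the authors' log2 fold change (coded Active minus IBA, sign turned here), a p-value and an FDR. The authors' 2 columns of state means were not used. In each library 100% of the deposited values were whole multiples of 1 read within 0.01 read, which gave the read totals. Libraries of the same state all differed by more than sampling noise. Levels are not compared between genes, since no gene lengths were used.

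The main test was limma 3.58.1 (R 4.3.3) on log2(CPM + 0.5), with a trend in the variance and no covariates, for genes averaging 1 CPM or more, two-sided, with Benjamini-Hochberg adjustment over all of them and a threshold of 0.05. Differences are IBA minus Active on that scale, where the added 0.5 makes changes of low genes look smaller. For Ghsr all 252 assignments of libraries to states gave an exact permutation test. Whole-read tests with edgeR 4.0.16 and DESeq2 1.42.0, other pseudocounts, filters, scalings, variance models, weights, a choroid plexus covariate, a replicate block and the omission of libraries were alternatives. The test was tried on simulated data first. These data gave every gene the same spread beyond counting error and held no outlying library. The trial therefore does not show how well differences of the receptors could be seen.

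The named genes are the 8 receptors, in each of 6 surrounding lists the called genes or else the 2 with the smallest p, and for each tested receptor the 2 genes with the highest within-state r. Of the last, 1 is not reported here. The receptors, lists and alternatives were chosen with earlier results of these data known.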

Additional observations from a re-analysis of the deposited data

Results flagged for a closer look

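In the Active group, Lepr in replicate 4 was 22.4 CPM and Insr in the same library was 30.3 CPM. Each was set apart because its gap to the nearest of the other 4 values, divided by the whole range, was 0.851 for Lepr and 0.801 for Insr, above Dixon's 95% value of 0.71 for 5 samples. Choroid plexus markers were highest in the same library, and their part in these values was not tested.

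Ghsr in IBA replicate 5 was 0.0719 CPM while the other 4 IBA libraries were at 0, which gives a ratio of 1 by construction and rests on 2 reads. In all, 3 of 16 groups of 5 values were set apart this way, where chance gives about 1 in 20. The Lepr and Insr flags come from the same library and are not independent.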

How the results depend on the processing

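No setting called any of the 7 tested receptors. Over 23 alternatives Adipor2 (-0.33 to -0.10), Glp1r (-0.53 to -0.19) and Ghr (0.07 to 0.39) kept their signs. Lepr was -0.64 in both edgeR and DESeq2. It turned positive with array quality weights (0.13), with the choroid plexus covariate (0.15) and without both Active replicates 4 and 5 (0.54), and ranged from -0.37 to 0.52 when 1 library was left out (0.52 without Active replicate 4, 0.08 without IBA replicate 1, 0.09 without IBA replicate 5). Without both libraries Insr was 0.091 and Adipor1 0.23, and Adipor1 was 0.061 with weights. Leaving out 1 library gave -0.34 to 0.04 for Insr and -0.17 to 0.13 for Adipor1, positive without Active replicate 4 only, and -0.26 to 0.13 for Igf1r, positive without Active replicate 1 only. With 1 library left out Ghsr ranged from -0.56 to -0.26, against -1.22 on the log2(CPM + 0.1) and -0.25 on the log2(CPM + 1) scale, and its exact permutation p fell under 0.05 without Active replicate 1 (-0.51) or 2 (-0.56).

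The count of called genes in the 6 surrounding lists was 1. It was 0 with no filter, with no intensity trend, in edgeR and without both Active replicates 4 and 5, 13 in DESeq2, and 0 to 2 when 1 library was left out. The cause was not tested. With the replicate number as a block it was 3, and 0 receptors were called. Same-numbered libraries correlated at 0.12, 0.10, -0.17, -0.01 and 0.20. Active replicates 1, 2 and 5 correlated best with the IBA library of their number, and Active replicates 3 and 4 did not. IBA replicates 2 and 5 correlated best with the Active library of their number, and IBA replicates 1, 3 and 4 did not. The labels do not say what a number marks, and the numbers were not taken as pairs. The choroid plexus covariate and the joint omission were chosen with earlier results known. With 5 libraries a state and a median SE of 0.24 for the receptors, small differences could not be seen.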
